A study of Mus musculus with 12 samples.

Results

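Collagen chain genes encode the alpha chains of the collagens, and 34 of them were expressed in the osteoblasts or in the osteoblast cell line examined here. The genes were chosen by name, as every gene whose symbol is Col, a type number, the letter a and a chain number and whose FPKM reached 1 in any of the 12 libraries. Of 44 such symbols in the tables, 34 met the limit and 10 stayed below it in every library, among 23284 gene names listed for sorted osteoblasts and 24346 for the cell line. FPKM scale the fragments of a gene by its transcript length and by the mapped reads of the library, so that levels can be compared between genes of different length.

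RNA-Seq values of 2 experiments were analysed, each with 3 libraries against 3. In the first, female Col2.3-ECFP mice aged 12 weeks, in which a type I collagen promoter drives enhanced cyan fluorescent protein (ECFP), received vehicle or the hormone fragment PTH (1-34), given for 3 weeks on 5 days of each week at a daily 40 µg/kg. Bone cells negative for 7AAD, lineage markers and CD45 and positive for ECFP were sorted 24 h after the last injection, so the sort itself selected cells by the activity of a collagen promoter. In the second, MC3T3-E1 cells, a line of preosteoblasts from mouse calvaria, carried the retroviral vector pMX-IRES-Puro either empty (mock) or with mouse *Slpi* cDNA, were selected with puromycin and were lysed before confluence. By the methods, biological replicates in the study came from different mice, but the labels tie no library to a mouse or a culture. For the MC3T3-E1 libraries in particular, the *p* values may therefore measure only the spread between these libraries.

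Each collagen molecule is wound from 3 alpha chains whose residues repeat the pattern glycine-X-Y, since only glycine is small enough for the inner side of the helix. Fibrillar collagens build the banded fibrils of bone and cartilage, fibril-associated collagens sit on those fibrils, network-forming collagens make sheets such as the basement membrane, type VI collagen forms beaded filaments around cells, and transmembrane collagens and multiplexins stay at the cell surface or in basement membrane zones. Osteoblasts deposit mainly type I collagen, with smaller amounts of type V and other types, and mineral is then laid down in that matrix.

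The repeat can be read in the genes. A coding exon of 54 bases, which holds 6 glycine-X-Y triplets, is shown for *Col3a1*, *Col5a2*, *Col6a3* and *Col4a2*, which stand for the fibrillar, type VI and network-forming chains that the results turn on. The exons are coding exon 6 of 51 of *Col3a1* (mm10, chr1:45325360-45325413, plus strand), coding exon 6 of 54 of *Col5a2* (chr1:45434892-45434945, minus strand), coding exon 15 of 43 of *Col6a3* (chr1:90795915-90795968, minus strand) and coding exon 16 of 47 of *Col4a2* (chr8:11413979-11414032, plus strand). They are written 5′ to 3′ on the coding strand with the glycine codons in capitals.
Col3a1: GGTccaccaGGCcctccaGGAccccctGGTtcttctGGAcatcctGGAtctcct
Col5a2: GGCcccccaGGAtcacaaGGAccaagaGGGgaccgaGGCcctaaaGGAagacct
Col6a3: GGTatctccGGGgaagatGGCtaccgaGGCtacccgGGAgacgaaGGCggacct
Col4a2: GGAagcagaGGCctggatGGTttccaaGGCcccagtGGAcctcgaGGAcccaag
Each exon was chosen as the first of 54 bases in its gene whose 6 triplets all open with a glycine codon. The equal spacing in the 4 exons follows from this choice, and the codons between the glycine codons differ. *Col4a2* had only 1 internal coding exon of 54 bases.

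Exons of this length were a common feature of the collagen chain genes. Of their 1547 internal coding exons in GENCODE release M21, 432 were exactly 54 bases long (27.9%) and 66.1% had a length divisible by 9, against 0.467% and 13.8% of 157553 internal coding exons in 21889 other protein-coding genes. *Col24a1* and *Col27a1* held the largest number, 33 exons of 54 bases each, whereas *Col8a1*, *Col8a2* and *Col10a1* had only 2 coding exons and none of that length. The longest unbroken run of glycine-first triplets was 337 to 344 triplets in the 9 fibrillar genes other than *Col24a1* (216) and *Col27a1* (217). It was 113 triplets in each of *Col9a1*, *Col9a2* and *Col9a3*, 87 in *Col6a1* and *Col6a2*, 45 in *Col6a3* and 40 to 66 in the type IV genes, where 23 to 25 separate runs followed each other. The plot of the longest run against the number of 54-base exons shows the fibrillar genes apart, while genes of the other families lie partly among each other.

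**Figure D1:**
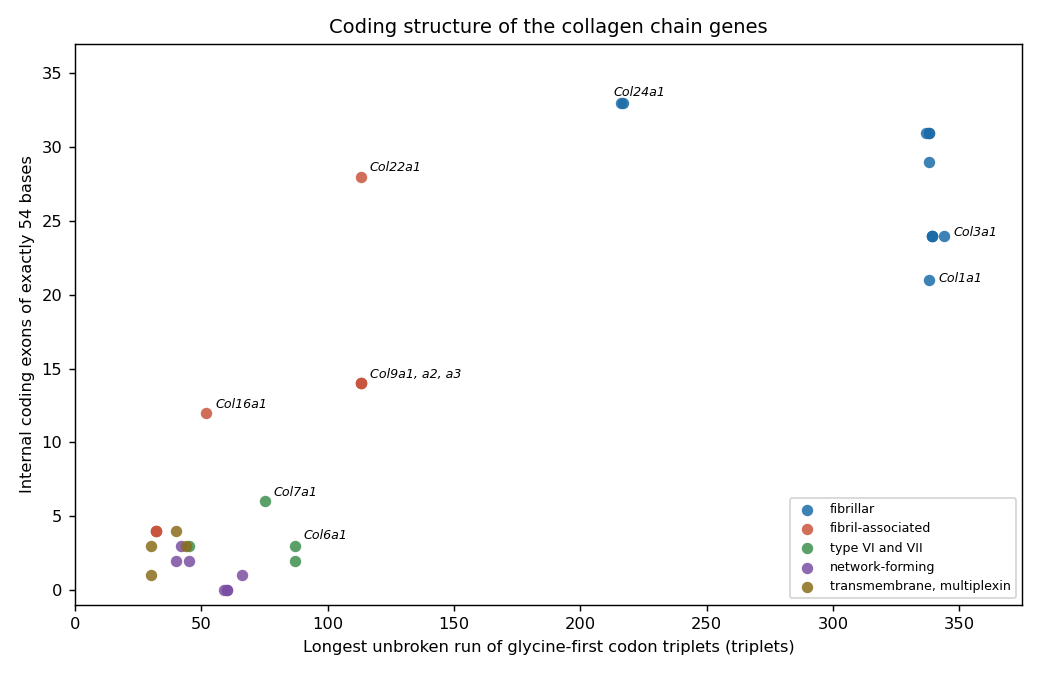
Number of internal coding exons of exactly 54 bases (vertical axis) against the longest unbroken run of glycine-first codon triplets (horizontal axis, in triplets), 1 point for each of the 34 genes, coloured by family. Fibrillar genes lie at 216 triplets or more with 21 to 33 such exons, and network-forming genes lie at 66 triplets or fewer with 0 to 3.

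Despite the shared repeat, no stretch as long as a read was nearly the same in the coding sequences of 2 members. The longest coding sequence of each gene was compared on the coding strand without gaps. Of the 561 pairs of genes, 0 shared a window of 75 bases, the read length of the study, at 2 or fewer mismatches. The closest windows of any pair differed at 10 bases (*Col1a1* with *Col2a1*, and *Col5a3* with *Col11a2*). Untranslated ends, genes other than the members and the mapping itself were not examined. Several members lie side by side in mm10. *Col3a1* and *Col5a2* end 24.6 kb from each other on chromosome 1, *Col6a2* and *Col6a1* follow each other on the same strand of chromosome 10 with 85.2 kb between them, and *Col4a6* and *Col4a5* start 1.31 kb apart on opposite strands of chromosome X. *Col4a1* and *Col4a2* start on opposite strands of chromosome 8 and overlap by 22 bases. RefSeq promoters of mm10 matched 27 of the 34 genes, and the 250 bases before the start were searched on either strand. A gene was counted if any of its promoters held the letters. The GC box letters GGGCGG stood in 17 members (63%), against 35.4% of 27018 genes with promoters. The TATA box letters TATAAA stood in 14.8% of the members and 14.3% of all these genes, and the CRE letters TGACGTCA in 0 members and 1.77% of all these genes.

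The libraries themselves were first compared. The deposited FPKM summed to between 400839 and 462460 in a sorted osteoblast library and between 541932 and 599746 in a MC3T3-E1 library. The number of reads cannot be had from FPKM, and depths relative to the first control library ranged from 0.787 to 1.4 and from 0.869 to 1. *Slpi* was listed at 377 to 396 FPKM in mock and 1848 to 2105 FPKM in *Slpi* libraries, and at 1.64 to 2.62 FPKM in vehicle and 19.8 to 37.5 FPKM in PTH libraries. All 9 osteoblast markers were above 0 in every library, and their summed FPKM was 14643, 14628 and 17830 in vehicle, 18583, 16365 and 27627 in PTH, 902 to 922 in mock and 1259 to 1311 in *Slpi* libraries. PTH replicate 2 stood apart by striated muscle markers, whose summed FPKM was 2889 there and 1.21 to 20.2 in the other 5 sorted libraries. PTH against vehicle gave higher calls for 2 of 9 osteoblast (*Alpl* and *Spp1*), 4 of 8 chondrocyte, 7 of 10 neutrophil, 1 of 3 osteoclast, 1 of 8 reticular stromal and adipocyte and 1 of 9 adventitial and periosteal fibroblast genes, where 6.38% of all genes tested were called higher and 8.85% lower. Lower calls fell on 4 of 5 T and NK cell genes and 1 adventitial fibroblast gene. No call fell on the 5 endothelial, 8 pericyte and smooth muscle, 3 Schwann cell and 10 striated muscle genes tested. In bulk libraries, fewer cells of a type and less RNA per cell cannot be told apart.

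*Col1a1* and *Col1a2*, the chains of type I collagen, could be used only in MC3T3-E1 cells. In sorted osteoblasts they were listed at 26217 and 26655 FPKM in vehicle replicate 1 and at 24170 and 24544 in vehicle replicate 2, but at 0 in vehicle replicate 3 and in all 3 PTH libraries. A value of 0 for the most abundant transcript of bone in cells sorted by its promoter was treated as a failed estimate, so no comparison was made. In all, 54 genes of the sorted osteoblasts, these 2 members included, were at 0 in 1 library and above 100 FPKM in another of its group, and 16 genes, none of them a member, were so in MC3T3-E1 cells.

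In vehicle-treated osteoblasts, the highest chains after type I were fibrillar. *Col11a2*, a chain of type XI collagen, had the highest level at 992, 909 and 1115 FPKM in vehicle replicates 1 to 3. *Col5a2*, *Col3a1*, *Col11a1* and *Col2a1* followed with means of 843 ± 83.0, 839 ± 109, 790 ± 91.3 and 613 ± 56.7 FPKM (SD, *n* = 3), and neighbours in this order overlapped in range except *Col11a1* and *Col2a1*. *Col5a1* (239 ± 18.8) and *Col22a1* (183 ± 21.9), a chain found at tissue junctions, lay below them without overlap. *Col16a1*, *Col6a1*, *Col6a2* and *Col12a1* lay between 89.0 and 99.4 FPKM on average, *Col13a1* at 65.1 and *Col6a3* at 43.1. Of the 32 members other than type I, 30 reached 1 FPKM in a sorted library, while *Col4a6* and *Col7a1* did not.

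In MC3T3-E1 cells type I chains were measured in every library, and the order of the other chains was partly shared with sorted osteoblasts. *Col1a1* stood at 7561, 7507 and 7237 FPKM in mock replicates 1 to 3 and *Col1a2* at 5994, 6064 and 5801, with no overlap between them. After type I, *Col6a1* (848 ± 21.1), *Col3a1* (833 ± 36.9), *Col6a2* (616 ± 22.4), *Col5a2* (422 ± 8.13), *Col12a1* (373 ± 4.51) and *Col5a1* (329 ± 11.6) had the highest mean FPKM (SD, *n* = 3). *Col3a1*, *Col5a2*, *Col5a1* and *Col16a1* were among the first 8 of 32 in both. *Col11a2*, first among these chains in sorted osteoblasts, averaged 1.8 FPKM and ranked 24th of 32. *Col22a1* averaged 0.193 FPKM, and *Col13a1*, a transmembrane collagen, was listed at 0 in every MC3T3-E1 library. *Col4a1* and *Col4a2*, the main chains of basement membrane collagen, averaged 42.7 and 44.0 FPKM in mock cells and 3.97 and 2.92 in vehicle-treated osteoblasts. The experiments differed in cells, and the labels and the methods do not name the same library kit for MC3T3-E1 cells, so these levels stand side by side and were not tested.

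**Figure D2:**
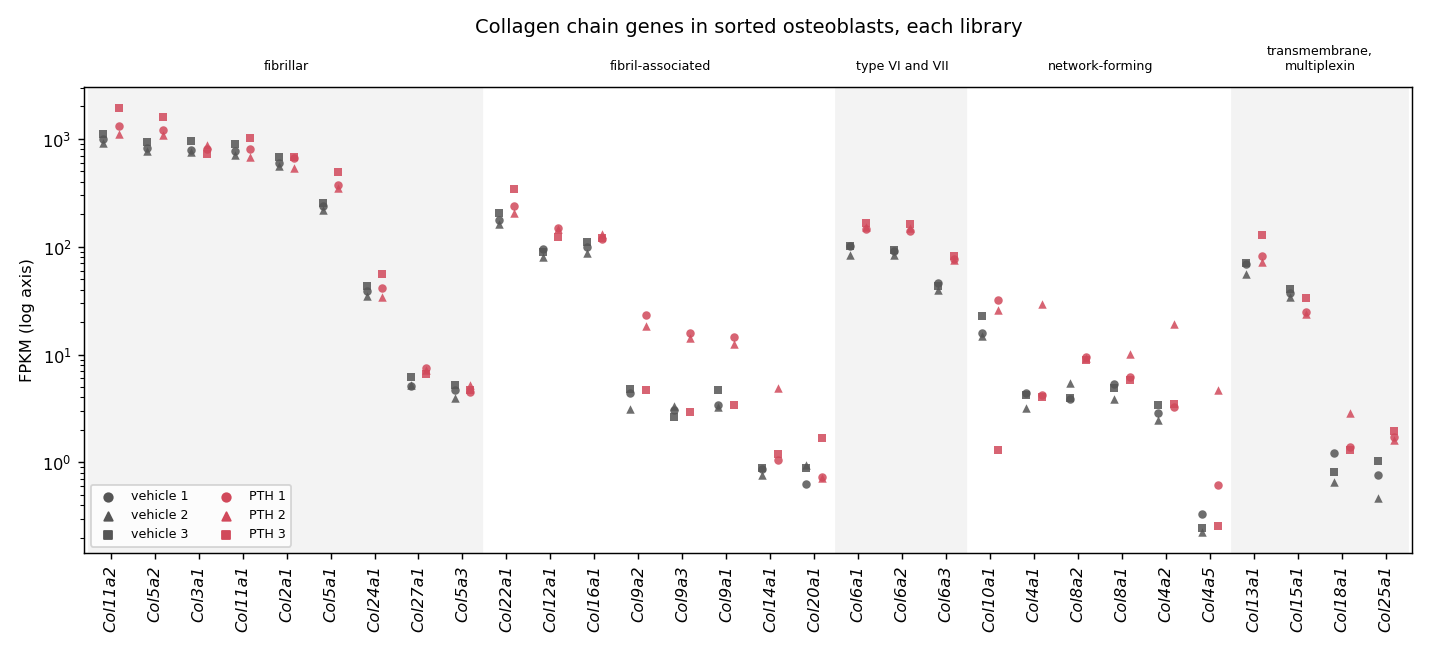
FPKM (log axis) of the 30 collagen chain genes tested in sorted osteoblasts, grouped by family, with 1 point per library (grey, vehicle; red, PTH; the shape gives the replicate). *Col11a2* and *Col5a2* reach the highest levels, the type VI chains are higher in all PTH libraries, and single PTH libraries stand apart for type IV, IX and X chains.

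The share of all summed FPKM taken by the members other than type I was 1.17, 1.10 and 1.42% in vehicle and 1.52, 1.35 and 1.67% in PTH libraries. The totals of vehicle replicates 1 and 2 hold type I values that the other 4 libraries list at 0. Without the genes that have such a failed value, the share was 1.41, 1.31 and 1.56% in vehicle and 1.57, 1.46 and 1.74% in PTH libraries, so that the means were 1.43 and 1.59% in place of 1.23 and 1.51%. In both forms the groups overlapped, since vehicle replicate 3 exceeded PTH replicate 2. In MC3T3-E1 cells the share was 0.827, 0.801 and 0.794% in mock and 0.853, 0.853 and 0.839% in *Slpi* libraries, without overlap. With type I included, the share in MC3T3-E1 cells lay between 3.20 and 3.35%.

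PTH was then compared with vehicle, the comparison that asks how intermittent hormone treatment changed the transcripts of osteoblasts. Type VI collagen, *Col5a1*, *Col5a2*, *Col8a2* and *Col12a1* were higher after PTH, by 1.55 to 2.1 times in mean FPKM. With limma, 7 of the 30 members tested rose at an adjusted *p* under 0.05 (Benjamini-Hochberg over 13004 genes), where 6.38% of all genes tested did. No member fell (8.85% of all genes did), although 1, *Col15a1*, was lower at an unadjusted *p* under 0.05. The fold changes below are on the scale log2(FPKM + 1), which understates changes of low genes. Their sign was positive in 27 of the 30 and negative in 3, with a median of 0.59 against 0.01 over all genes tested. The 27 include *Col4a5*, *Col14a1* and *Col20a1*, which reached 1 FPKM only in PTH libraries. The limit of 1 FPKM in any library thus favoured a positive sign for these genes. The calls depended on the vehicle libraries, because without vehicle replicate 1 or without vehicle replicate 2 no member was called and 1 and 0 genes of the whole table were called higher. Without PTH replicate 1 the number was 4, since *Col5a1*, *Col5a2* and *Col12a1* were no longer called (adjusted *p* from 0.0580 to 0.102). With quantile normalization 4 members rose and 1 fell, the latter being *Col15a1*.

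All 3 chains of the main type VI trimer rose, where 6.38% of all genes tested did. *Col6a3* (chr1:90765923-90843971, minus strand), whose long chain carries many globular domains, was at 46.5, 39.5 and 43.4 FPKM in vehicle replicates 1 to 3 and at 77.4, 75 and 82.6 FPKM in PTH replicates 1 to 3. *Col6a2* (chr10:76595762-76623630, minus strand) was at 90.8, 83.3 and 93.4 FPKM in vehicle and 141, 149 and 161 FPKM in PTH. *Col6a1* (chr10:76708792-76726168, minus strand) was at 102, 83.1 and 102 FPKM in vehicle and 147, 154 and 165 FPKM in PTH. For each of these genes every PTH library lay above every vehicle library. The log2 fold changes were 0.85 ± 0.0994, 0.75 ± 0.0960 and 0.70 ± 0.112 (SE), with adjusted *p* values of 0.0133, 0.0138 and 0.0173 in limma. Leaving out PTH replicate 3, or any library other than vehicle 1 and 2, left these 3 genes called.

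*Col5a1* and *Col5a2*, whose products join in the type V molecule that lies inside type I fibrils and limits their width, rose together. *Col5a1* (chr2:27886425-28039514, plus strand) was at 240, 220 and 257 FPKM in vehicle and at 370, 351 and 498 FPKM in PTH. *Col5a2* (chr1:45374321-45503282, minus strand) was at 828, 770 and 933 FPKM in vehicle and at 1218, 1083 and 1611 FPKM in PTH. In both, PTH replicate 3 was the highest library and the groups did not overlap. The log2 fold changes were 0.75 ± 0.148 (adjusted *p* = 0.0247, limma) and 0.61 ± 0.161 (adjusted *p* = 0.0470). The *Col5a1* call held under 9 of 13 alternatives, with a highest adjusted *p* of 0.104 in limma. The *Col5a2* call was close to the threshold and held under 4 of 13 alternatives, with adjusted *p* values from 0.0179 to 0.160. Leaving out any library other than PTH replicate 2 ended it, with the lowest of these values, 0.0522, without PTH replicate 3. *Col5a3*, the rarer chain of the same type, was at 3.99 to 5.17 FPKM in vehicle and 4.54 to 5.26 FPKM in PTH, with overlapping groups and a log2 fold change of 0.06 ± 0.136.

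2 further chains passed the test. *Col8a2* (chr4:126286793-126314330, plus strand), a short network-forming chain known from the cornea and vessel walls, was at 3.87, 5.40 and 3.94 FPKM in vehicle and 9.43, 9.38 and 8.87 FPKM in PTH, a log2 fold change of 0.93 ± 0.143 (adjusted *p* = 0.0163, limma). *Col12a1* (chr9:79598991-79718831, minus strand), a fibril-associated chain of dense connective tissue and bone, was at 95.8, 80.9 and 90.2 FPKM in vehicle and 148, 146 and 123 FPKM in PTH, a log2 fold change of 0.64 ± 0.114 (adjusted *p* = 0.0200). Neither gene had overlapping groups. *Col8a1*, the partner of *Col8a2*, was at 5.30, 3.89 and 4.86 FPKM in vehicle and 6.25, 10.1 and 5.85 FPKM in PTH, did not overlap and was not called (adjusted *p* = 0.128).

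The major fibrillar chains of high level did not pass the test. *Col3a1*, the chain of the fibrils of soft tissue, was at 793, 760 and 963 FPKM in vehicle and 799, 877 and 722 FPKM in PTH (log2 fold change -0.07 ± 0.126). *Col2a1*, the main chain of cartilage, was at 598, 566 and 676 FPKM in vehicle and 661, 541 and 686 FPKM in PTH (0.03 ± 0.125). *Col11a1*, which nucleates cartilage fibrils with *Col11a2*, was at 772, 710 and 890 FPKM in vehicle and 800, 673 and 1014 FPKM in PTH (0.05 ± 0.166). In these 3 genes the groups overlapped, and the sign of the change depended on the scaling or on 1 library for each of them. *Col11a2* (chr17:34039437-34066685, plus strand) was at 992, 909 and 1115 FPKM in vehicle and 1305, 1114 and 1917 FPKM in PTH, so that 1 PTH library lay just below the highest vehicle library (0.49 ± 0.202, adjusted *p* = 0.140, limma).

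Several uncalled members were highest in PTH replicate 3. *Col22a1* was at 179, 163 and 207 FPKM in vehicle and 238, 205 and 346 FPKM in PTH, and *Col13a1* at 68.6, 55.9 and 70.8 FPKM in vehicle and 83.0, 72.8 and 128 FPKM in PTH. Both were highest in PTH replicate 3, as were 13 of the 30 members, where 27.0% of all genes tested had their highest value in that library. Vehicle replicate 2 held the lowest value of 20 of the 30 members, *Col5a1* and *Col5a2* included, against 22.9% of all genes tested. The summed osteoblast markers were also highest in PTH replicate 3, at 27627 FPKM against 14628 to 18583 in the other 5 libraries, and their part in the result was not tested. *Col16a1* was at 100, 87.8 and 110 FPKM in vehicle and 117, 131 and 122 FPKM in PTH, without overlap, and was not called (adjusted *p* = 0.101).

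*Col15a1* (chr4:47208161-47313167, plus strand), a multiplexin of basement membrane zones, was the only member whose vehicle libraries all lay above its PTH libraries. It was at 37.6, 34.2 and 40.4 FPKM in vehicle and 25.0, 23.9 and 33.5 FPKM in PTH, a log2 fold change of -0.44 ± 0.149 (adjusted *p* = 0.0869, limma). Without PTH replicate 3 the adjusted *p* was 0.0249. In the other direction, 14 members had every PTH library above every vehicle library, where 19.5% of all genes tested did, against 20.9% of all genes for the direction of *Col15a1*. The 14 include *Col14a1*, which passed the limit of 1 FPKM only through PTH libraries.

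The chains of type IX collagen, which coats cartilage fibrils, divided the PTH libraries. *Col9a2* was at 4.44, 3.13 and 4.83 FPKM in vehicle and at 23.4, 18.4 and 4.70 FPKM in PTH. *Col9a3* was at 3.08, 3.31 and 2.66 FPKM in vehicle and at 15.9, 14.2 and 2.96 FPKM in PTH. *Col9a1* was at 3.40, 3.29 and 4.67 FPKM in vehicle and at 14.5, 12.5 and 3.42 FPKM in PTH. In all 3 genes PTH replicates 1 and 2 lay far above vehicle and PTH replicate 3 lay within the vehicle range. On the log2(FPKM + 1) scale, *Col9a2* and *Col9a3* were the 2 members that changed at least 2-fold at an unadjusted *p* under 0.05 (1.24% of all genes tested rose this far, and 4.35% fell as far, which no member did). By the ratio of mean FPKM, *Col8a2* (2.1) and *Col25a1* (2.35) also passed 2-fold at an unadjusted *p* under 0.05. For the type IX genes *Col9a2*, *Col9a3* and *Col9a1*, the test was also adjusted over all genes. Their adjusted *p* values were 0.0980, 0.125 and 0.158 in limma, and without PTH replicate 3 they were 0.00325, 0.00181 and 0.00552.

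*Col10a1*, the network-forming chain of hypertrophic cartilage, followed the same libraries with a larger gap. It was at 15.9, 14.8 and 22.8 FPKM in vehicle and at 32.0, 25.9 and 1.3 FPKM in PTH. PTH replicates 1 and 2 were above all vehicle libraries and PTH replicate 3 was below them. The log2 fold change was -0.55 ± 0.941, and it was 0.69 without PTH replicate 3. The summed FPKM of 9 chondrocyte markers was 313, 262 and 297 in vehicle and 580, 538 and 507 in PTH, and 4 of the 8 tested (*Acan*, *Sox9*, *Comp* and *Chad*) were called higher. Within the list, *Acan*, *Comp*, *Chad*, *Matn3*, *Hapln1* and *Lect1* were lower in PTH replicate 3 than in PTH replicates 1 and 2 (for *Matn3*, 0.437 FPKM against 5.48 and 3.69). *Sox9* was at 17.6, 15.2 and 16.9 FPKM in PTH replicates 1 to 3, and *Prg4* was highest in PTH replicate 3, at 122 FPKM against 58.7 and 46.8 FPKM. *Matn1*, which was not tested, was at 0.391 FPKM or below in every sorted library and at 0 in vehicle replicate 2 and PTH replicate 3. The part of cartilage cells in the type IX and X values was not tested.

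The type IV chains, by contrast, were high in 1 PTH library. *Col4a1* was at 4.44, 3.22 and 4.23 FPKM in vehicle and at 4.23, 29.4 and 4.00 FPKM in PTH. *Col4a2* was at 2.87, 2.46 and 3.44 FPKM in vehicle and at 3.28, 19.1 and 3.46 FPKM in PTH. *Col4a5* was at 0.333, 0.228 and 0.249 FPKM in vehicle and at 0.618, 4.74 and 0.256 FPKM in PTH. PTH replicate 2 thus exceeded the mean of the other 5 libraries by 7.30, 6.16 and 14.1 times, and none of these genes was called (adjusted *p* from 0.306 to 0.368, limma). *Col14a1*, a fibril-associated chain, was at 4.86 FPKM in that library and at 0.764 to 1.2 FPKM in the others. It was also the library with striated muscle markers at 2889 FPKM and with pericyte and smooth muscle markers at 578 FPKM, against 41.5 to 252 FPKM in the other 5, while the endothelial markers summed to 9.52 FPKM. Within the pericyte and smooth muscle list, *Acta2*, *Tagln* and *Des* stood at 282, 124 and 113 FPKM in that library. There *Myh11*, *Cnn1* and *Mcam* were also at their highest, but *Rgs5* (2.1 FPKM, against 1.81 to 3.35 FPKM elsewhere) and *Notch3* were not. The part of muscle, pericyte and endothelial cells in the type IV values was not tested. The plot of library patterns sets these chains beside the marker sums.

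**Figure D3:**
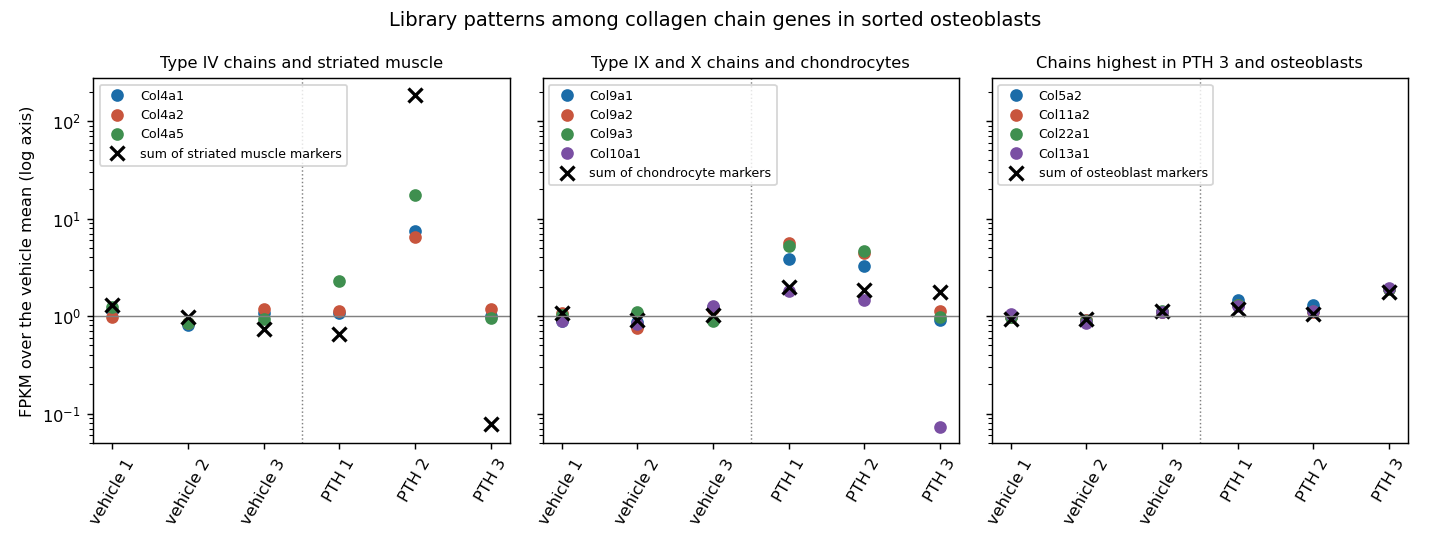
FPKM of selected collagen chain genes (coloured points) and summed FPKM of cell type markers (black crosses) in each sorted osteoblast library, divided by the mean of the 3 vehicle libraries (log axis), with the dotted line between vehicle and PTH. Type IV chains and striated muscle markers are high in PTH replicate 2 (left). Type IX and X chains are high in PTH replicates 1 and 2, whereas the summed chondrocyte markers are high in every PTH library (middle). The 4 chains on the right were chosen after their values were seen and are highest in PTH replicate 3, as are the osteoblast markers.

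The remaining members were low or little changed. *Col24a1* was at 34.8 to 43.3 FPKM in vehicle and 34.2 to 55.5 FPKM in PTH, and *Col27a1* at 5.08 to 6.14 and 6.64 to 7.53 FPKM. *Col18a1*, the multiplexin from which endostatin is cut, was at 0.657 to 1.23 FPKM in vehicle and 1.31 to 2.90 FPKM in PTH. *Col25a1* was at 0.471 to 1.02 and 1.63 to 1.96 FPKM (adjusted *p* = 0.0568, limma). The groups of *Col18a1*, *Col25a1* and *Col27a1* did not overlap, whereas those of *Col24a1* and of *Col20a1*, at 0.629 to 1.68 FPKM over all 6 libraries, did.

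Genes that modify, fold, cut, crosslink and bind collagen were examined beside the chains, with 23 of 47 higher and 1 lower in PTH libraries (48.9% and 2.13%, against 6.38% and 8.85% of all genes tested) and a median log2 fold change of 0.66. Of the hydroxylation and glycosylation genes, 12 of 15 rose, and the smallest *p* values belonged to *P4ha1*, a catalytic subunit of prolyl 4-hydroxylase (71.5, 70.8 and 84.2 FPKM in vehicle, 136, 119 and 159 in PTH, log2 fold change 0.86 ± 0.133), *Leprel2*, a prolyl 3-hydroxylase (0.82 ± 0.131), and *Ppib*, cyclophilin B (0.71 ± 0.117). Of the chaperone and secretion genes, 4 of 11 rose, led by *Fkbp10* at 149, 137 and 163 FPKM in vehicle and 286, 250 and 388 FPKM in PTH, *Fkbp14* (0.70 ± 0.125) and *Serpinh1*, the collagen chaperone HSP47 (0.96 ± 0.203). Among proteinases and crosslinking enzymes, 5 of 11 rose and 1 fell. The lysyl oxidase *Loxl2* fell from 139, 126 and 159 FPKM in vehicle to 62.9, 62.5 and 79.3 FPKM in PTH (-1.04 ± 0.135), *Loxl3* rose by 0.96 ± 0.145 and *Pcolce*, the enhancer of the C-proteinase, by 1.12 ± 0.177. Of the receptors, 2 of 10 rose, *Mrc2* (0.82 ± 0.189), an endocytic collagen receptor, and *Ddr1* (0.81 ± 0.206), a receptor kinase, while *Ddr2* was at 0.50 ± 0.149 and was not called. Without vehicle replicate 1 or vehicle replicate 2, none of these genes was called, and without PTH replicate 1 the number that rose was 6.

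*Slpi*-overexpressing cells were next compared with mock, to ask which transcripts change when this inhibitor of leukocyte proteases is raised in preosteoblasts. The changes of collagen chains were small and of both signs. With limma, 8 of the 27 members tested rose and 13 fell at an adjusted *p* under 0.05 (Benjamini-Hochberg over 11466 genes), where 31.9% of all genes tested rose and 28.9% fell, so that 60.8% of all genes and 21 of 27 members had a call. The median log2 fold change was -0.13 over the members and 0.00 over all genes. No member changed 2-fold on this scale (0.75% of all genes rose and 0.384% fell that far at an unadjusted *p* under 0.05). With quantile normalization the numbers were 5 and 15. Of the 8 that rose, *Col3a1*, *Col5a2*, *Col6a3*, *Col11a2* and *Col15a1* were called under all 13 alternatives, whereas *Col1a1*, *Col2a1* and *Col11a1* were called under 7, 5 and 4.

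**Figure D4:**
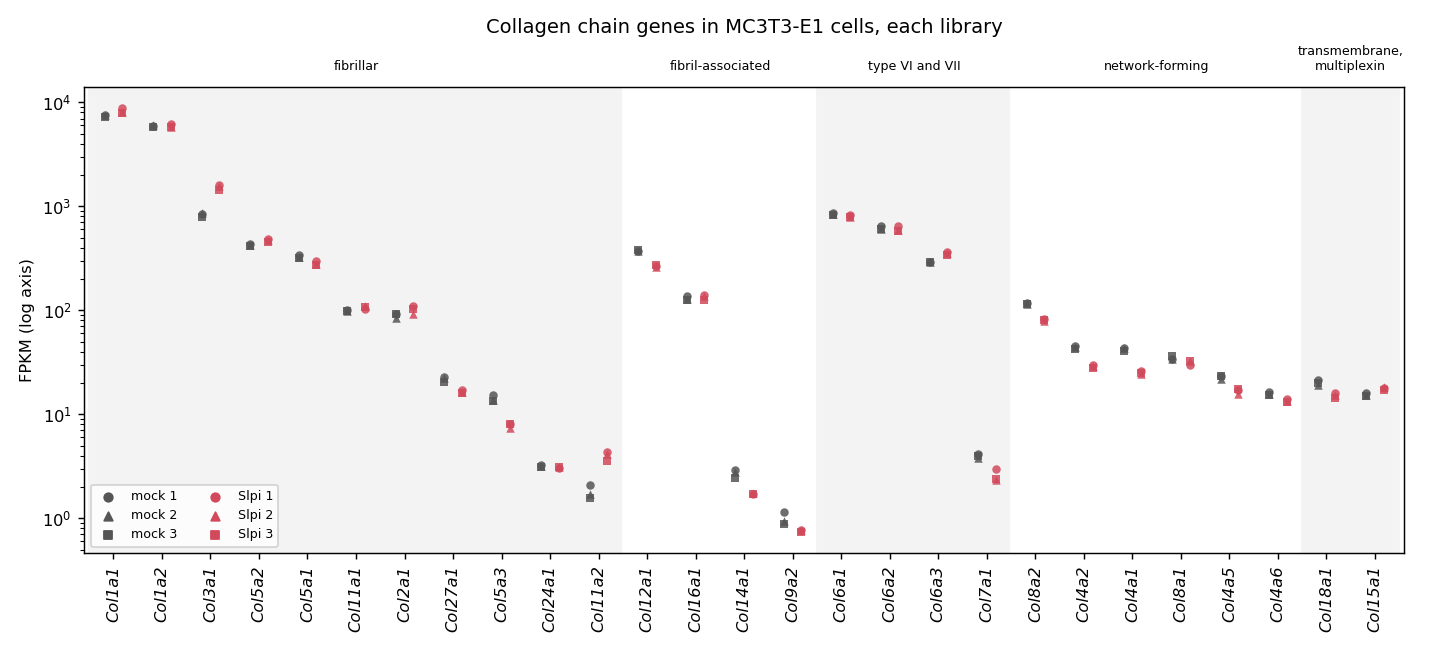
FPKM (log axis) of the 27 collagen chain genes tested in MC3T3-E1 cells, grouped by family, with 1 point per library (grey, mock; red, *Slpi*; the shape gives the replicate). Replicates lie close together, *Col3a1* and *Col11a2* are higher in the *Slpi* libraries, and the network-forming chains are lower.

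*Col3a1* had the largest rise on the log2(FPKM + 1) scale, while *Col11a2* had the larger ratio of mean FPKM, 2.24 against 1.85. *Col3a1* was at 853, 856 and 791 FPKM in mock replicates 1 to 3 and at 1593, 1569 and 1453 FPKM in *Slpi* replicates 1 to 3, a log2 fold change of 0.88 ± 0.0483 (SE; adjusted *p* = 4.5e-06, limma). *Col11a2* was at 2.1, 1.72 and 1.57 FPKM in mock and 4.32, 4.16 and 3.58 FPKM in *Slpi* cells, a log2 fold change of 0.85 ± 0.0900 (adjusted *p* = 9.5e-05). In both genes the 2 groups lay far apart compared with the spread within them, but *Col11a2* remained a gene of low level.

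The other rises were smaller. *Col6a3* was at 293, 290 and 293 FPKM in mock and 362, 354 and 340 FPKM in *Slpi* cells (0.27 ± 0.0325), and *Col15a1* at 16.2, 15.3 and 15.1 FPKM and 17.7, 18.1 and 17.2 FPKM (0.18 ± 0.0408). *Col5a2* was at 431, 421 and 414 FPKM in mock and 483, 471 and 451 FPKM in *Slpi* cells (0.15 ± 0.0352). None of these genes had overlapping groups, and the adjusted *p* values were 0.000185, 0.00547 and 0.00618 in limma.

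Type I collagen, the main product of osteoblasts, changed in 1 of its chains. *Col1a1* (chr11:94936224-94953042, plus strand) was at 7561, 7507 and 7237 FPKM in mock and 8740, 8095 and 7983 FPKM in *Slpi* cells (0.15 ± 0.0479, adjusted *p* = 0.0228, limma), without overlap. *Col1a2* (chr6:4504814-4541544, plus strand) was at 5994, 6064 and 5801 FPKM in mock and 6211, 5856 and 5748 FPKM in *Slpi* cells, with overlapping groups and a log2 fold change of 0.00 ± 0.0441 whose sign depended on which library was left out. The *Col1a1* call was lost without any 1 of the mock libraries (adjusted *p* from 0.0530 to 0.118), without *Slpi* replicate 2 (0.0548) and without the filter on low values (0.178), and with quantile normalization the change was 0. *Col2a1* was at 93.2, 84.1 and 93.1 FPKM and 110, 92.9 and 102 FPKM with overlap (0.17 ± 0.0650, adjusted *p* = 0.0490), and *Col11a1* at 102, 97.7 and 99.5 FPKM and 103, 110 and 108 FPKM (0.10 ± 0.0361, adjusted *p* = 0.0422).

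All 6 network-forming chains tested fell, in a comparison where 28.9% of all genes tested fell and 60.8% had a call. *Col4a1* (chr8:11198423-11312826, minus strand) had the largest fall among them, from 43.5, 43.5 and 41.0 FPKM in mock to 26.1, 24.6 and 24.9 FPKM in *Slpi* cells (-0.74 ± 0.0394, adjusted *p* = 4.0e-06, limma). *Col4a2* fell from 45.6, 44.2 and 42.2 FPKM to 29.9, 29.1 and 27.7 FPKM (-0.59 ± 0.0428). *Col8a2* fell from 118, 114 and 116 FPKM to 82.1, 79.8 and 81.6 FPKM (-0.51 ± 0.0295). In each of these the lowest mock library was well above the highest *Slpi* library. *Col4a5* fell from 23.2, 22 and 23.2 FPKM to 17.3, 15.6 and 17.5 FPKM (-0.42 ± 0.0507), and *Col4a6* from 16.3, 15.7 and 15.4 FPKM to 14.2, 13.3 and 13.3 FPKM (-0.21 ± 0.0428). *Col8a1* fell from 34.2, 34.1 and 36.4 FPKM to 30.2, 32.5 and 32.4 FPKM (-0.13 ± 0.0433). The *Col8a1* change was the smallest of the 6 and was not called in every alternative, with a highest adjusted *p* of 0.0949.

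Other falls were spread over the families. *Col5a3* fell from 15.3, 13.9 and 13.3 FPKM in mock to 8.03, 7.36 and 8.09 FPKM in *Slpi* cells (-0.78 ± 0.0594, adjusted *p* = 1.9e-05, limma), the largest fall of any member. *Col5a1*, its fibrillar relative, fell from 342, 324 and 320 FPKM to 301, 276 and 275 FPKM (-0.21 ± 0.0442). *Col27a1* fell from 22.9, 22.2 and 20.6 FPKM to 17.0, 16.6 and 15.9 FPKM (-0.39 ± 0.0482). Thus of 11 fibrillar chains tested 6 rose, 3 fell and 2 were not called, where 31.9% of all genes tested rose and 28.9% fell.

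The fibril-associated *Col12a1* fell from 371, 369 and 378 FPKM to 270, 262 and 272 FPKM (-0.47 ± 0.0298), and *Col14a1* from 2.95, 2.79 and 2.42 FPKM to 1.71, 1.76 and 1.71 FPKM (-0.45 ± 0.0724). *Col7a1*, the chain of the anchoring fibrils of skin, fell from 4.19, 3.79 and 3.98 FPKM to 2.96, 2.36 and 2.38 FPKM (-0.49 ± 0.0782), and *Col18a1* from 21.3, 19.2 and 20.1 FPKM to 15.9, 15.3 and 14.2 FPKM (-0.39 ± 0.0535). These 4 genes had no overlap between groups and adjusted *p* values from 8.0e-06 to 0.000886.

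The 6 members without a call included *Col6a1* at 873, 839 and 833 FPKM in mock and 832, 782 and 783 FPKM in *Slpi* cells (-0.09 ± 0.0376, adjusted *p* = 0.0748, limma). *Col6a2* was at 641, 605 and 600 FPKM and 648, 594 and 586 FPKM, and *Col16a1* at 137, 130 and 125 FPKM and 142, 136 and 126 FPKM, both with overlap. *Col9a2* and *Col24a1* were at 0.744 to 1.15 and 3.08 to 3.23 FPKM over all 6 libraries, and the sixth was *Col1a2*. Groups did not overlap for 7 members in the higher direction and 15 in the lower, against 34.9% and 32.2% of all genes tested. The 15 include *Col9a2*, which reached 1 FPKM only in mock replicate 1.

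Collagen processing genes and receptors also moved in both directions, with 18 of 41 higher and 15 lower in *Slpi* cells (43.9% and 36.6%, against 31.9% and 28.9% of all genes tested) and a median log2 fold change of 0.04. Of the hydroxylation and glycosylation genes 6 of 14 rose and 5 fell, with the smallest *p* values for *P4ha3* (113, 112 and 112 FPKM in mock, 78.4, 75.5 and 76.8 in *Slpi* cells, log2 fold change -0.54 ± 0.0291), *P4ha1* (0.35 ± 0.0331) and *P3h2* (-0.62 ± 0.0639). *P4ha3* and *P4ha1* encode subunits of prolyl 4-hydroxylase, and *P3h2* encodes a prolyl 3-hydroxylase. Of the chaperone and secretion genes 8 of 11 rose and 1 fell, led by *Creb3l1*, a transcription factor of the secretory pathway (0.56 ± 0.0450), *Serpinh1* (0.47 ± 0.0411) and *Sec24d*, a coat protein of transport vesicles (0.38 ± 0.0354). Among proteinases and crosslinking enzymes 3 of 9 rose and 5 fell, with *Pcolce2* at 0.65 ± 0.0449, *Loxl4* at -0.33 ± 0.0351 and *Loxl3* at -0.34 ± 0.0394. Of the receptors 1 of 7 rose and 4 fell, with *Itga11* (-0.55 ± 0.0338) and *Itga1* (-0.55 ± 0.0509), the alpha subunits of integrins that bind collagen, and *Mrc2* (-0.25 ± 0.0410) first.

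Cell type markers were called beside these values, in a comparison where 60.8% of all genes tested had a call. Of 8 osteoblast markers tested 6 rose and 1 fell in *Slpi* cells, with *Ibsp* at 3.22, *Alpl* at 1.71 and *Sp7* at 1.49 on the log2 scale and *Spp1* at -0.39. All 4 pericyte and smooth muscle genes tested fell, as did 4 of 5 adventitial fibroblast, 3 of 4 reticular stromal and adipocyte, 2 of 2 Schwann cell, 1 of 1 striated muscle and 1 of 4 chondrocyte genes, while 1 fibroblast, 1 reticular stromal and 2 chondrocyte genes rose. None of 1 endothelial, 1 neutrophil and 2 osteoclast genes was called, and no T and NK cell gene reached the filter. The part of these marker changes in the collagen values was not tested.

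The balance between chains of 1 collagen type was read as a ratio within each library, which does not depend on the scaling of that library. In *Slpi* cells *Col5a1* over *Col5a2* was 0.623, 0.587 and 0.610, against 0.794, 0.771 and 0.772 in mock, a log2 difference of -0.36. *Col6a3* over *Col6a1* was 0.435, 0.453 and 0.434, against 0.335, 0.346 and 0.351, a log2 difference of 0.36. *Col1a1* over *Col1a2* was 1.41, 1.38 and 1.39, against 1.26, 1.24 and 1.25, a log2 difference of 0.16. In these 3 ratios the groups lay apart. *Col4a1* over *Col4a2* and *Col6a1* over *Col6a2* differed by -0.15 and -0.07, also without overlap.

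In sorted osteoblasts 4 of these ratios could be formed, without that of type I. *Col5a1* over *Col5a2* was 0.290, 0.285 and 0.276 in vehicle and 0.304, 0.324 and 0.309 in PTH (log2 difference 0.14). *Col6a3* over *Col6a1* was 0.457, 0.475 and 0.425 in vehicle and 0.525, 0.489 and 0.501 in PTH (0.16). *Col4a1* over *Col4a2* lay between 1.16 and 1.55 in all 6 libraries, PTH replicate 2 with its high type IV values included (exact permutation *p* = 0.70), and *Col6a1* over *Col6a2* between 0.997 and 1.12 (exact permutation *p* = 0.40). For the 7 ratios without overlap in either experiment the two-sided exact permutation *p* was 0.10, the lowest that 3 libraries against 3 can give, and 0.129 after adjustment over 9 ratios.

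Set side by side, the experiments gave different calls for most chains. Over all genes tested, 15.2% had a call in the PTH comparison and 60.8% in the *Slpi* comparison. At these rates many genes differ in call whatever their family, and the share of all genes with each combination of calls was not computed. Of 23 members tested in both, *Col5a2* and *Col6a3* were called higher in PTH and in *Slpi* libraries, and *Col5a1*, *Col8a2* and *Col12a1* were called higher after PTH and lower with *Slpi*. *Col6a1* and *Col6a2* were called higher after PTH alone, 5 members were called higher and 8 lower with *Slpi* alone, and *Col9a2*, *Col16a1* and *Col24a1* had no call in either. The cells and the spreads differed between the experiments, and no difference between them was tested. The plot of both comparisons shows the log2 fold change of each member with its error.

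**Figure D5:**
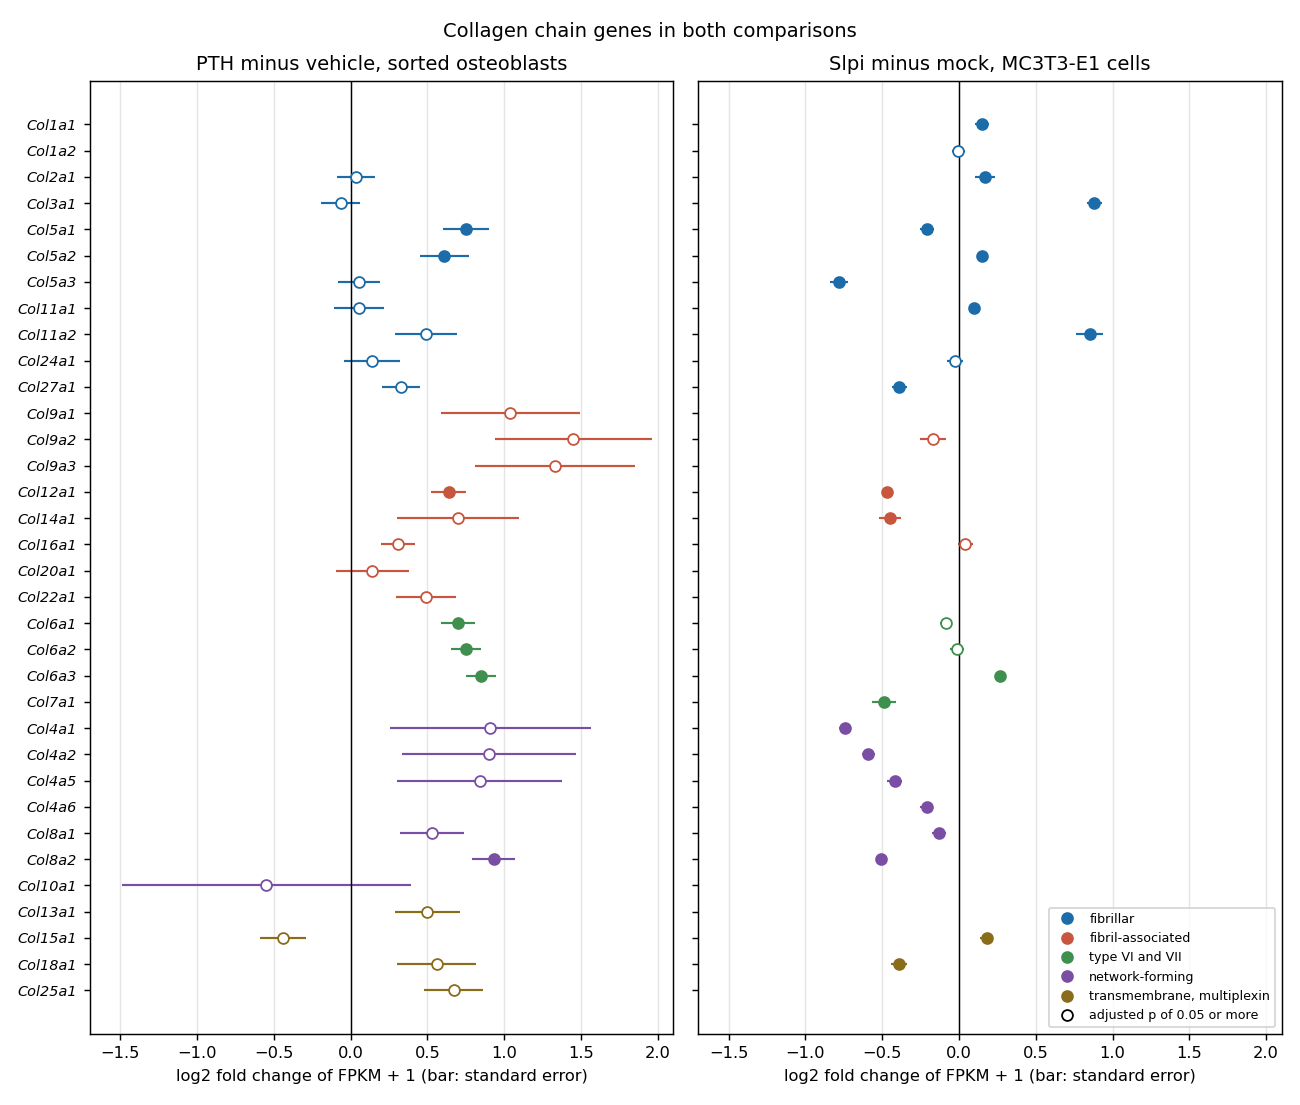
Log2 fold change of FPKM + 1 for each collagen chain gene in PTH against vehicle (left) and *Slpi* against mock (right), with the standard error as a bar and colours for families. Filled points passed an adjusted *p* of 0.05 in limma: 7 on the left, all to the right of 0, and 21 on the right, 8 above and 13 below 0.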

How the data were processed

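FPKM values of every gene in each of the 12 libraries were deposited by the authors. By their methods, single-end reads of 75 bases were mapped to mm10 with TopHat2 2.0.13, Bowtie2 2.2.3 and SAMtools 0.1.19 and FPKM were computed with Cuffnorm of Cufflinks 2.2.1, which normalizes across libraries. The gene annotation is not given in the sources used here. Per the labels, sorted cells were prepared with SMART-Seq and MC3T3-E1 cells with a TruSeq stranded mRNA kit, whereas the methods name SMART-Seq and KAPA kits for both, so the kit of the MC3T3-E1 libraries is uncertain. FPKM hold no read numbers, so the depth is unknown, and relative depths were taken from the steps between the lowest values.

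Here log2(FPKM + 1) of genes reaching 1 FPKM in any of 6 libraries was fitted for each experiment with limma 3.58.1 (eBayes with a trend) in R 4.3.3, 3 libraries against 3 without a replicate block, with Benjamini-Hochberg adjustment. Chain ratios were compared by exact permutation in Python 3.11.15 with scipy 1.17.1. The fit was tested on simulated data. Positions, exons and coding sequences came from GENCODE M21 on mm10, and promoters from RefSeq on GRCm38.p6.

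The members, the 5 families, the 4 lists of processing genes and receptors and the 11 lists of cell type markers were chosen with earlier results of these data known. Values in every library are given for members called in either comparison and for the 10 of highest mean FPKM in each experiment, and the 3 genes of smallest *p* are named for each processing or receptor list. Other genes were named after their values were seen. Alternatives blocked on the replicate number, dropped the filter, filtered on a mean of 1 FPKM, used 0.1 as pseudocount, fitted no trend, normalized by quantiles, removed the genes with a failed value (0 beside more than 100 FPKM within a group) or left out each library.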

Additional observations from a re-analysis of the deposited data

How the results depend on the processing

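In sorted osteoblasts 4 collagen chains rose under quantile normalization, and leaving out 1 library gave 0 to 9. The number that fell was 1 with quantile normalization and 0 to 1 with a library left out. For processing genes and receptors, leaving out 1 library gave 0 to 25 that rose and 0 to 1 that fell. In MC3T3-E1 cells 5 chains rose without the filter, 5 with quantile normalization and 5 to 7 with a library left out. Over all genes, 517 rose in the osteoblasts without the filter, against 830, and 0 to 674 with a library left out. The share of chains other than type I in vehicle was 1.43% instead of 1.23%, and in PTH 1.59% instead of 1.51%, without the genes listed at 0 in 1 library. Quantile normalization turned the sign of *Col2a1* (-0.16) and *Col11a1* (-0.057) in the osteoblasts and of *Col24a1* (0.017) in MC3T3-E1 cells. Leaving out 1 library gave log2 fold changes of -0.032 to 0.14 for *Col2a1*, -0.14 to 0.037 for *Col3a1*, -0.027 to 0.13 for *Col5a3*, -1.23 to 0.69 for *Col10a1*, -0.10 to 0.19 for *Col11a1* and -0.044 to 0.30 for *Col24a1* in the osteoblasts, and -0.037 to 0.019 for *Col1a2* and -0.06 to 0.015 for *Col6a2* in MC3T3-E1 cells. The cause of these shifts was not tested.

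Replicate numbers were checked as a possible pairing of the libraries. Deviations of same-numbered libraries correlated by 0.0294, 0.0735 and 0.102 in the osteoblasts and by 0.0385, -0.0523 and -0.000264 in MC3T3-E1 cells. In the osteoblasts each vehicle library correlated best with its own number, while PTH replicate 1 correlated more with vehicle replicate 2 (0.0688). In MC3T3-E1 cells mock replicates 2 and 3 correlated best with other numbers. These values do not settle whether the libraries were paired. With the number as a block, 9 chains rose and 1, *Col15a1*, fell after PTH, and 7 rose and 13 fell with *Slpi*. Over all genes it gave 1028 rises and 1234 falls against 830 and 1151, and 3752 and 3420 against 3658 and 3315.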

Other observations

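Among the 10 collagen chain genes that stayed below 1 FPKM in every library, and so entered no comparison, *Col28a1* was at 0.506, 0.691 and 0.320 FPKM in vehicle and 0.243, 0.124 and 0.0555 FPKM in PTH. *Col6a5*, another chain of type VI collagen, was at 0.275, 0.721 and 0.437 FPKM in vehicle and 0.231, 0.165 and 0.0736 FPKM in PTH. Both had every vehicle library above every PTH library, as did 20.9% of all genes tested, and both were named after their values were seen. In MC3T3-E1 cells *Col17a1*, a transmembrane chain of epithelial anchoring sites, was at 0.458, 0.436 and 0.383 FPKM in mock and 0.302, 0.241 and 0.230 FPKM in *Slpi* cells, and *Col23a1* at 0.165, 0.179 and 0.182 FPKM and 0.252, 0.314 and 0.360 FPKM. No test was run on these genes, whose values rest on few reads.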
